A study of Zea mays with 144 samples.

Results

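The maize genes ss2, a sucrose synthase gene also named sus1, and SPS, a sucrose phosphate synthase gene also named sps1, were followed through anther development. Every feature (spotted cDNA) that the array annotation assigned to either gene was taken, which gave 6 features of ss2 (4318, 6902, 7358, 9109, 11138 and 11207) and 1 of SPS (8449), together 7 of the 12160 features on the array. Features 6902 and 9109 carry the same EST accession in the annotation. RNA came from anthers of the inbred line Ky21 at 6 stages staged by light microscopy, namely meiocyte, mixed dyad/tetrad, tetrad, early microspore, mid-microspore and mixed mid/late microspore, each from the upper and from the lower floret of the tassel spikelet. No group carried a mutation or a treatment. The 12 combinations of stage and floret had 2 RNA pools each (24 pools). A pool drew on 1 to 4 plants, and 8 to 20 anthers were taken from a tassel, so that p-values measure the spread between pools of plants. About 100 ng of RNA per pool was amplified and labelled with Cy3 or Cy5, and pairs of pools were hybridised on 48 slides, 24 comparing stages and 24 comparing florets. Whole anthers were used, so fewer cells of a type and less RNA per cell cannot be told apart.

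Sucrose synthase cleaves sucrose with UDP into UDP-glucose and fructose, in a reversible reaction that feeds respiration, starch and the glucans of cell walls. Sucrose phosphate synthase works the other way, joining UDP-glucose and fructose 6-phosphate into sucrose phosphate, from which sucrose phosphate phosphatase releases sucrose. Anthers import sucrose from the rest of the plant, and microspores, once freed from the callose wall of the tetrad, depend on sugars supplied through the anther wall and the tapetum.

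The deposited values were log ratios between the 2 pools of a slide, so they give differences and not absolute amounts, and no level is compared between features. Every slide has a low, a medium and a high scan. These were averaged, and the level of each pool was fitted from its 4 slides on a log2 scale on which the mean of the 12 pools of a set (the pools numbered 1, or those numbered 2) is 0. Differences were tested with limma over all features, with Benjamini-Hochberg adjustment and a threshold of 0.05, and "called" means an adjusted p below it. The labels do not state which dye is the numerator. Stage slides were read as Cy5 over Cy3. Between meiocyte and mid/late microspore, 3 of the 4 features of meiosis genes then fell in upper and 2 of 4 in lower florets. Of all features, 13.5% were called lower over this span in each floret. The direction is taken as likely from that 1 list and was not tested otherwise. Of the 4 pollen features 1 was called higher in upper and 0 in lower florets. Their medians were -0.56 in upper and -0.30 in lower florets. Turning that sign would exchange every higher and lower below. Each combination of stage and floret has only 2 pools, which limits the precision.

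All 7 features varied over the 6 stages in both florets. The stage effect was called for 7 of 7 in upper and 7 of 7 in lower florets (limma F test), against 37.5% of all features in upper and 37.5% in lower florets. For the 6 features other than 9109 the adjusted p lay between 4.06e-06 and 1.02e-04. For feature 9109 it was 0.0356 in upper and 0.0274 in lower florets. The features followed 3 courses. Features 4318, 6902, 7358, 11138 and 11207 of ss2 peaked at the early microspore stage, SPS was low at first and high in the last stages, and feature 9109 of ss2 was highest at the mid/late microspore stage.

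The 5 peaking features of ss2 rose between tetrad and early microspore in both florets. Feature 11138 showed the largest step. In upper florets its pools had log2 levels of -0.75 and -0.71 at meiocyte, -0.36 and -0.88 at dyad/tetrad, -0.46 and -0.19 at tetrad, 1.68 and 1.51 at early microspore, 0.27 and 0.17 at mid-microspore, and -0.16 and -0.14 at mid/late microspore. In lower florets they had -0.44 and -0.57 at meiocyte, -0.49 and -0.40 at dyad/tetrad, -0.65 and -0.43 at tetrad, 1.91 and 2.01 at early microspore, -0.29 and 0.19 at mid-microspore, and -0.26 and -0.57 at mid/late microspore. The 4 early microspore pools, at 1.51 to 2.01, lay above the other 20 pools, at -0.88 to 0.27, with no overlap. The same held for the other peaking features: the early microspore pools lay between 1.24 and 1.89 for feature 4318, with all other pools at or below 0.18. They lay between 1.20 and 1.82 for feature 6902, with all others at or below 0.19, and between 1.26 and 1.97 for feature 7358, with all others at or below 0.21. For feature 11207 they lay between 0.84 and 1.23, with all others at or below 0.08. The 5 features were grouped by this separation, and the share of all features that show it was not counted.

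**Figure D1:**
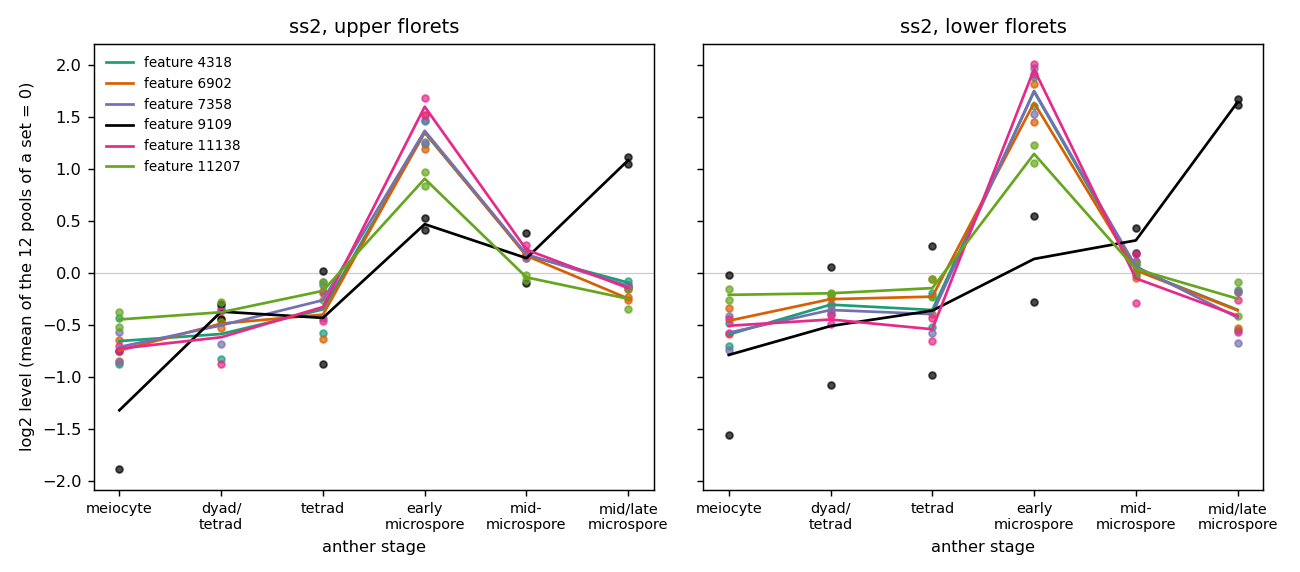
Log2 levels of the 6 ss2 features (y axis; the mean of the 12 pools of a set is 0) at the 6 stages (x axis) in upper florets (left panel) and lower florets (right panel). Points are single RNA pools and lines join the means of 2 pools; the 5 features other than 9109 peak at early microspore, and feature 9109 is highest at mid/late microspore.

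Early microspore minus tetrad, feature 11138 was 1.93 ± 0.20 higher on the log2 scale (SE) in upper florets (3.80-fold, adjusted p = 2.75e-04, limma) and 2.50 ± 0.20 higher in lower florets (5.66-fold, adjusted p = 2.70e-05). These folds average in high scans that lie near 0 on some slides. With the low and medium scans alone, averaged, the log2 rise of this ss2 feature was 2.52 in upper and 3.10 in lower florets. Over the 5 features the rise was between 1.08 and 1.93 in upper florets, with adjusted p from 2.75e-04 to 0.00163, and between 1.29 and 2.50 in lower florets, with adjusted p from 2.70e-05 to 3.43e-04. So 5 of the 6 ss2 features were called higher in each floret. Of all features, 1.94% were called higher at this step in upper and 2.04% in lower florets. No call at this step was lost when any 1 of the 4 compared pools was left out. Feature 9109 was 0.90 ± 0.56 higher in upper and 0.50 ± 0.56 higher in lower florets at this step, neither called.

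The same 5 features fell between early microspore and mid-microspore. Feature 11138 fell by 1.38 ± 0.20 in upper florets (adjusted p = 0.00211, limma) and fell by 2.01 ± 0.20 in lower florets (adjusted p = 1.50e-04). The 5 features fell by 0.95 to 1.38 in upper and by 1.11 to 2.01 in lower florets, and all 5 were called in each. Feature 9109 differed by -0.33 in upper and by 0.18 in lower florets at this step, neither called. Among all features, 3.28% were called lower at this step in upper and 4.49% in lower florets. Leaving out 1 pool ended no call among the lower floret samples. In upper florets the calls of features 4318 and 7358 were lost without any 1 of the 4 compared pools. That of feature 6902 was lost without early microspore pool 1 (-1.05) or mid-microspore pool 2 (-1.17), and that of feature 11207 without early microspore pool 2 (-0.91) or mid-microspore pool 2 (-0.99). The values without the pools that ended the calls lay between -1.06 and -1.27 for feature 4318 and between -1.10 and -1.25 for feature 7358, and the adjusted p of all these lay between 0.0515 and 0.162. The call of feature 11138 held without each pool.

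The early microspore stage stood apart in the 5 peaking features of ss2. They were grouped by that separation, so the counts of called pairs follow in part from the grouping. For each of the 5 features, all 5 pairs of stages that include early microspore were called in both florets, with p adjusted jointly over all features and the 15 pairs of a floret. Of the 10 pairs without it, 0 to 2 per feature were called in upper and 0 in lower florets. For feature 9109, 1 of the 5 pairs that include early microspore was called in upper and 0 in lower florets. Over all features, 13.4% of the pairs were called in upper and 13% in lower florets. In the order of levels of feature 11138 in upper florets, early microspore was followed by mid-microspore, mid/late microspore, tetrad, dyad/tetrad and meiocyte, and no difference between neighbours below the first place was called (adjusted p between 0.257 and 0.797). In lower florets the order was early microspore, mid-microspore, mid/late microspore, dyad/tetrad, meiocyte and tetrad, again with no called difference between neighbours below the first (adjusted p between 0.273 and 0.944). None of the 3 steps other than those into and out of early microspore was called for any of the 7 features. Of all feature and step combinations at those 3 steps, 0.592% were called in upper and 0.587% in lower florets.

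Between the ends of the series the differences of the 5 peaking features were smaller than those around early microspore. Mid/late microspore minus meiocyte lay between 0.20 and 0.59 in upper and between -0.04 and 0.24 in lower florets. Only feature 11138 in upper florets was called among them (0.58 ± 0.20, adjusted p = 0.0405, limma), against 13.2% of all features called higher in upper and 14.3% in lower florets. That call was lost on leaving out any 1 of the 4 compared pools, with values from 0.50 to 0.61 and adjusted p from 0.0977 to 0.236. Whether the change differed between florets was also tested. It was 0.24 to 0.49 larger in upper florets for the 5 features, with an adjusted p of 1.00.

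The 5 features resembled each other closely and feature 9109 did not resemble them. Over the 12 means of stage and floret, Pearson's r between any 2 of the 5 was 0.98 to 1.00, as a description of spots that share the same slides and pools. With feature 9109 their r was 0.23 to 0.32, and that of feature 9109 with SPS was 0.80. Feature 6902, which shares its accession with feature 9109, is one of the 5. In upper florets the pools of feature 9109 were at -0.75 and -1.89 at meiocyte, -0.44 and -0.30 at dyad/tetrad, -0.88 and 0.02 at tetrad, 0.41 and 0.53 at early microspore, -0.10 and 0.39 at mid-microspore, and 1.12 and 1.05 at mid/late microspore. In lower florets they were at -0.02 and -1.56, 0.05 and -1.08, -0.99 and 0.26, -0.27 and 0.54, 0.20 and 0.43, and 1.67 and 1.61 in the same order of stages. The mid/late microspore pools were the highest in both florets, and the early stages were widely spread.

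Mid/late microspore minus meiocyte, feature 9109 was 2.41 ± 0.56 higher in upper florets (adjusted p = 0.00592, limma) and 2.43 ± 0.56 higher in lower florets (adjusted p = 0.00540). In upper florets the call was lost without mid/late microspore pool 1 (2.20, adjusted p = 0.0908) or meiocyte pool 2 (1.74, adjusted p = 0.115). In lower florets it was lost without mid/late microspore pool 1 (2.33, adjusted p = 0.0538) or meiocyte pool 2 (1.55, adjusted p = 0.0733). Its stage effect was lost without any 1 of 8 of the 12 pools in upper florets (F between 1.78 and 4.29) and without either mid/late microspore pool in lower florets (F of 2.36 and 3.03). In both florets it was also lost from the low scan alone (adjusted p of 0.260 in upper and 0.261 in lower florets), with columns scaled to one spread (0.330 and 0.214) and with the low and medium scans averaged (0.0896 and 0.074). Stage slides alone ended it in upper florets (0.0655), and fitting the florets apart ended it in lower florets (0.112). The residual SD of the feature, 0.614, exceeded that of 93.3% of all features, whereas the 5 others lay between 0.122 and 0.224. The low scans contributed much of the size: on the slides that compare mid/late microspore with meiocyte the low scan gave log2 ratios of 4.12 and 6.21 in upper and 2.42 and 8.03 in lower florets, against 1.12 to 1.73 in the medium and high scans. With the medium and high scans alone, averaged, the ss2 feature was 1.27 higher in upper (adjusted p = 4.22e-04) and 1.23 higher in lower florets (adjusted p = 5.33e-04). With columns scaled to one spread the call was lost in both florets (1.60 in upper, adjusted p = 0.110, and 1.69 in lower, adjusted p = 0.0875), and from the low scan alone it was lost in upper florets (4.67, adjusted p = 0.0527).

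SPS was low in the 3 stages up to tetrad and high from mid-microspore on, in both florets. The enzyme it encodes makes sucrose phosphate. In upper florets its pools had log2 levels of -1.07 and -1.0 at meiocyte, -0.84 and -0.82 at dyad/tetrad, -1.03 and -1.43 at tetrad, 0.05 and 1.40 at early microspore, 1.72 and 1.74 at mid-microspore, and 2.07 and 2.03 at mid/late microspore. In lower florets they had -0.71 and -1.35 at meiocyte, -0.67 and -1.61 at dyad/tetrad, -1.68 and -1.40 at tetrad, -1.54 and -0.90 at early microspore, 1.93 and 1.31 at mid-microspore, and 1.75 and 2.03 at mid/late microspore. The 8 pools of the last 2 stages, at 1.31 to 2.07, and the 12 pools of the first 3, at -1.68 to -0.67, did not overlap. The upper floret early microspore pools lay between them or beside the late ones, and the lower floret early microspore pools lay within the range of the early ones. The share of all features with such a gap between early and late pools was not counted.

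**Figure D2:**
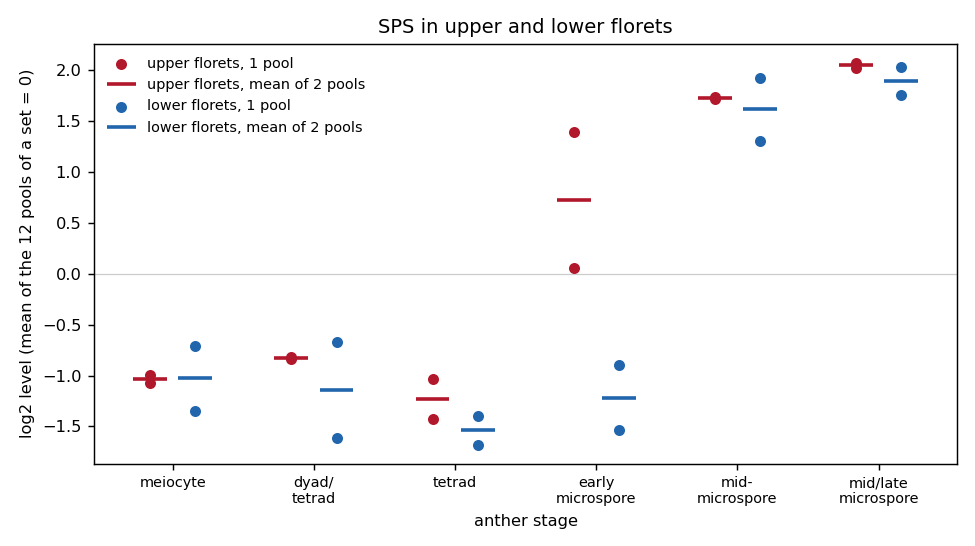
Log2 level of SPS (y axis; the mean of the 12 pools of a set is 0) at the 6 stages (x axis), with upper florets left of lower florets. Points are single RNA pools and bars are means of 2; at early microspore the upper floret pools are at 0.05 and 1.40 and the lower floret pools at -1.54 and -0.90.

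Mid/late microspore minus meiocyte, SPS was 3.08 ± 0.40 higher in upper florets (8.47-fold, 95% interval of the log2 difference 2.22 to 3.95, adjusted p = 1.03e-04, limma) and 2.92 ± 0.40 higher in lower florets (7.58-fold, 2.06 to 3.78, adjusted p = 1.55e-04). These calls held without each of the compared pools, with values between 2.75 and 3.41. The folds average in low scans that read far higher than the other scans on some slides, as described below. Over the other settings that kept all pools, it lay between 2.00 and 5.19 in upper and 1.93 and 4.82 in lower florets. The change differed by 0.16 ± 0.57 between florets (adjusted p = 1.00). With SPS and feature 9109 called in both florets, 3 of the 7 features were called higher in upper and 2 of 7 in lower florets over this span, read against the 13.2% and 14.3% above.

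The step at which SPS rose was called at a different place in each floret. In upper florets it rose by 1.95 ± 0.40 between tetrad and early microspore (adjusted p = 0.0211, limma) and was 1.00 ± 0.40 higher from there to mid-microspore, which was not called (adjusted p = 0.282). In lower florets it was 0.32 ± 0.40 higher at early microspore than at tetrad, which was not called (adjusted p = 0.822), and rose by 2.84 ± 0.40 from there to mid-microspore (adjusted p = 0.00165). Features called higher from early microspore to mid-microspore made up 2.11% of all features in upper and 3.13% in lower florets. The upper floret call was lost without tetrad pool 1 (2.14, adjusted p = 0.0901), tetrad pool 2 (1.69, adjusted p = 0.138) or early microspore pool 2 (1.20, adjusted p = 0.195). Without that last pool the next step in upper florets was called instead (1.76, adjusted p = 0.0454). Without early microspore pool 1 the rise to early microspore was 2.73. The lower floret call was lost without early microspore pool 1 (2.14, adjusted p = 0.0696) or mid-microspore pool 1 (2.15, adjusted p = 0.0509). In the order of SPS levels, mid/late microspore and mid-microspore came first in both florets, with no called difference between them (adjusted p of 0.688 in upper and 0.736 in lower florets). In upper florets early microspore came next, 1.55 above dyad/tetrad (adjusted p = 0.0199), and in lower florets meiocyte, dyad/tetrad, early microspore and tetrad followed with no called difference between neighbours (adjusted p between 0.688 and 0.937).

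The florets were next compared directly. At early microspore SPS was 1.94 ± 0.40 higher in upper than in lower florets (3.84-fold, 95% interval of the log2 difference 1.08 to 2.81), with an unadjusted p of 2.69e-04 and an adjusted p of 0.108 (limma over all features and 6 stages), so it was not called. All 4 slides that hybridised upper against lower early microspore pools gave higher values in the upper floret, with log2 ratios of 1.47 and 1.01 in set 1 and 2.13 and 2.14 in set 2, and each set holds both dye orientations. All 12 scans of these slides were above 0, from 0.50 to 2.51. Both statements rest on reading the floret slides as upper over lower whatever the dyes, a reading chosen after the values were seen. Turned by the dyes, the difference was 0.61 (adjusted p = 1.00). Over the other scan, centring and scaling settings the SPS difference lay between 1.32 and 2.95, and the median of a slide's scans was the only setting run that called it (1.53, adjusted p = 0.0318). At the other 5 stages it lay between -0.0038 and 0.31, with adjusted p from 0.843 to 0.999. Of all features and stages, 0.0274% were called. The floret by stage interaction of SPS had an unadjusted p of 0.0354 and an adjusted p of 1.00. By limma 0 features were called for that interaction, 270 of 12160 had an unadjusted p below 0.05, and no other tool was run. So a different course of SPS in the 2 florets was not shown by the adjusted test.

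**Figure D3:**
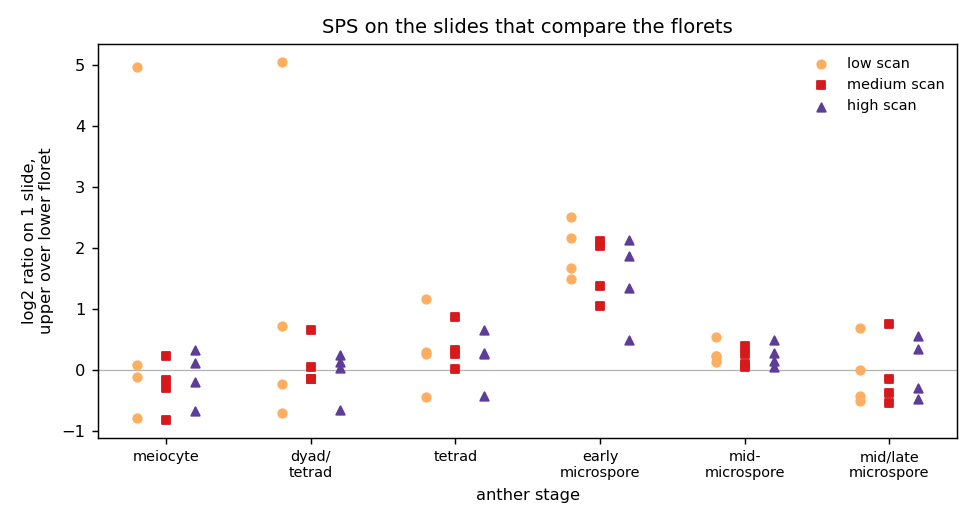
Log2 ratio of SPS on the slides that compare the florets (y axis; upper over lower floret on 1 slide) by stage (x axis), with the 3 scans of each slide as separate symbols and 4 slides per stage. All 12 values at early microspore lie between 0.50 and 2.51; at meiocyte and dyad/tetrad 1 low scan each stands at 4.96 and 5.05.

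Averaged over the 6 stages, SPS was 0.47 ± 0.16 higher in upper than in lower florets (adjusted p = 0.0474, limma), against 13.8% of all features called higher. The call was lost without 18 of the 24 pools taken 1 at a time, with values between 0.34 and 0.57 and adjusted p between 0.0504 and 0.202. It also rested on how the floret slides are read: turned by their dyes, the mean difference was -0.10. On 2 slides of set 2, which compare the meiocyte and the dyad/tetrad pools of the florets, the low scan stood at 4.96 and 5.05 against -0.81 to 0.32 in their other scans, and without the low scans the SPS difference averaged 0.31 (adjusted p = 0.0354). None of the 6 ss2 features was called between florets as reported, at any stage or on average. In 1 other setting each, features 9109 and 11207 were called on average. At early microspore the 5 peaking features were 0.24 to 0.40 lower in upper than in lower florets (adjusted p between 0.511 and 0.646), and feature 9109 was 0.33 ± 0.56 higher (adjusted p = 0.889). On the 4 slides of the early microspore florets, 19 of the 20 low scan values of the 5 features lay below 0. In all they lay between -0.64 and 0.12. Of the 20 medium scan values 17 lay below 0, whereas the 20 high scan values lay between -0.004 and 0.0234. These are spots of 1 gene, scanned repeatedly on slides of 2 pools per floret, so the values are not independent replicates. From the low scan alone the 5 features were 0.30 to 0.60 lower in upper florets, again not called (adjusted p between 0.449 and 0.822). Averaged over stages the ss2 features lay between -0.14 and 0.00 (adjusted p between 0.133 and 0.995).

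The size of the ss2 peak depended on the scan. On the 4 slides that compare early microspore with tetrad, the low scan averaged between 2.29 and 3.13 over the 5 features, the medium scan between 1.21 and 2.66 and the high scan between 0.03 and 1.01. On the 8 stage slides with an early microspore pool, feature 11207 read 1.67 to 2.65 away from 0 in the low scan and at most 0.12 away in the high scan. The low scan was over 1 on all 8 for each of the 5 features, and the high scan was then under 0.1 on 7 slides for feature 11207, 5 for feature 7358, 4 for feature 4318, 3 for feature 6902 and 2 for feature 11138. From the low scan alone all 5 ss2 features were called at both steps and in both florets, with rises of 2.14 to 2.93 in upper and 2.47 to 3.32 in lower florets. From the high scan alone the rise was called for 1 of 5 in upper and 2 of 5 in lower florets, and the fall for 0 of 5 in upper and 2 of 5 in lower florets. The upper floret fall was called for 3 of 5 from the medium scan alone and for 2 of 5 from the medium and high scans averaged, and the upper floret rise for 5 of 5 and 4 of 5. In lower florets both steps were called for all 5 in these settings. Over the 15 other settings that kept all pools, the upper floret fall stayed called in 10 for feature 4318 and 11 for 7358. It stayed called in 13 for feature 11207 and in 14 each for 6902 and 11138. Spot signals are not used here, so the part of saturation in these values was not tested. The average of the 3 scans includes the high scan and gave smaller ss2 changes than the low and medium scans averaged, which put the rise at 1.63 to 2.52 in upper and 1.91 to 3.10 in lower florets.

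SPS also had its largest ratios in the low scan, while its medium and high scans lay close together. On the lower floret slide of set 1 that compares mid-microspore with early microspore, SPS read 9.88 in the low scan, 2.23 in the medium and 1.75 in the high scan. On the 2 upper floret slides of mid/late microspore and meiocyte it read 5.18 and 8.60 in the low scan against 1.88 to 1.99 in the others. Without the low scans, SPS was 2.03 higher in upper (adjusted p = 7.72e-05) and 1.97 higher in lower florets (adjusted p = 9.46e-05) at mid/late microspore than at meiocyte. It was then 1.37 higher at early microspore than at tetrad in upper florets (adjusted p = 0.0114) and 1.65 higher at mid-microspore than at early microspore in lower florets (adjusted p = 0.00277). All 5 of these SPS results, the mean floret difference included, were called with and without the low scans. Over all other settings that kept the pools, the upper floret rise to early microspore held its call in 13 of 15 (adjusted p up to 0.0945, limma). The mean floret difference held its call in 9 of 13.

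**Figure D4:**
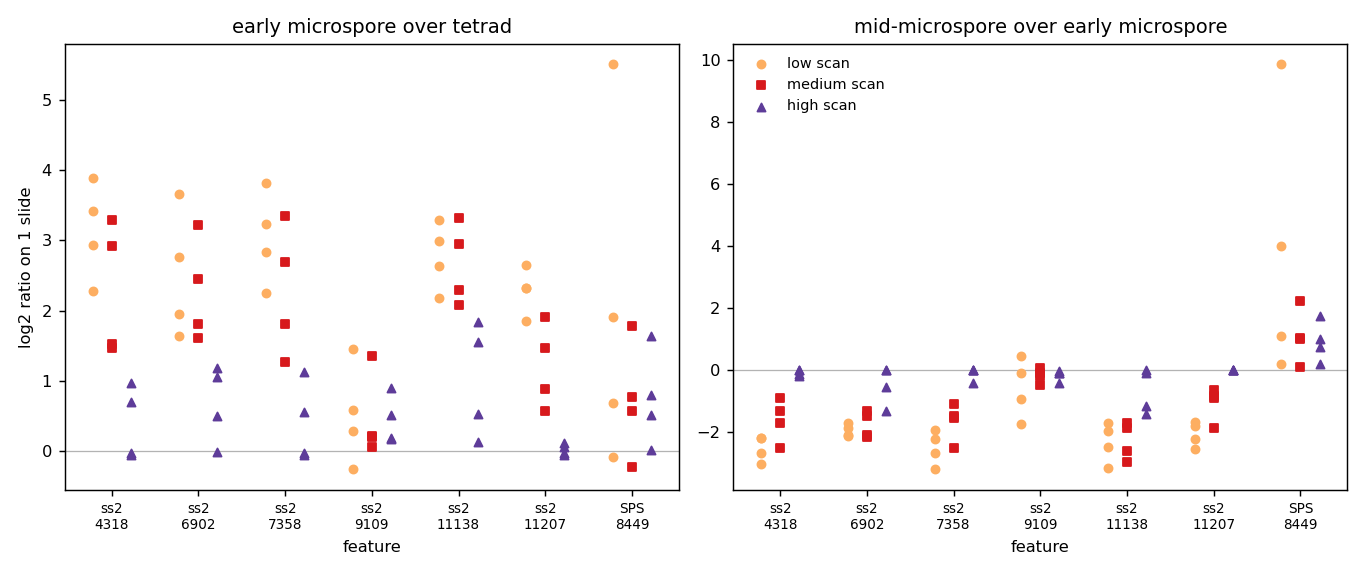
Log2 ratios of single slides (y axis) for the 7 features (x axis), on the 4 slides of early microspore over tetrad (left panel) and the 4 of mid-microspore over early microspore (right panel), with the low, medium and high scans as separate symbols. For the 5 peaking features of ss2 the high scans lie nearest 0, and a low scan of SPS stands at 9.88.

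Among the 1133 other features with a gene name, those whose 12 means of stage and floret were most like the mean of all 6 ss2 features were bZip37 (r = 0.96), 2 features of AN13 (0.95 and 0.92), ubc7, a ubiquitin-conjugating enzyme gene (0.94), and GRF1 (0.92). That mean includes feature 9109. Neither ubc7 nor the AN13 feature at 0.92 was among the 10 likest of any single ss2 feature. The stage effect of bZip37 was not called (adjusted p = 0.373 in upper and 0.631 in lower florets). For single features the likest was bZip37 for 4318 (0.95) and 6902 (0.96), GRF1 for 7358 (0.95), 11138 (0.96) and 11207 (0.97), and HO-1, a heme oxygenase gene, for 9109 (0.96). In upper florets GRF1 differed by 2.11 between early microspore and tetrad and by -2.04 between mid-microspore and early microspore, as values without a test. SPS was most like SnRK2.6, a protein kinase gene (0.97), atp3 (0.96), LSD1 (0.96), CesA-1, a cellulose synthase gene (0.95), and LIM6 (0.95), out of 1138 features. The stage effect was not called for CesA-1 in upper florets (adjusted p = 0.117), for atp3 in lower florets (0.0504) or for LIM6 in either (0.0512 in upper and 0.0587 in lower florets). These r describe group means that share slides and pools.

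No other gene of the sucrose cleavage list (other sucrose synthases and invertases) was matched by name, so none is analysed here. Of the sucrose synthesis list, 1 of 3 features was called between the ends of the series in each floret, and it was SPS. The counts of rises between the ends in these short lists stand beside 13.2% of all features called higher in upper and 14.3% in lower florets. The features of the sucrose phosphate phosphatase genes spp1 and SPP2, which act after SPS, were not called at either step around early microspore or between the ends. Mid/late microspore minus meiocyte, spp1 was -0.01 in upper and 0.14 in lower florets, and SPP2 was 0.38 and 0.18. Of the 5 features of the hexose phosphate list 1 rose between the ends in each floret, gpi, a glucose phosphate isomerase gene, by 0.80 ± 0.17 in upper (adjusted p = 0.00304, limma) and 0.87 ± 0.17 in lower florets (adjusted p = 0.00173). Of the 4 fructokinase features, whose enzymes phosphorylate the fructose freed by sucrose synthase, none was called between the ends. Feature 8675 of frk1 fell by 0.74 between early microspore and mid-microspore in lower florets (adjusted p = 0.0421), and was 0.62 higher at early microspore than at tetrad there, which was not called (adjusted p = 0.0881). MST2, by name a monosaccharide transporter gene and the only feature of the transport list, rose between the ends by 0.85 in upper (adjusted p = 0.0215) and 0.98 in lower florets (adjusted p = 0.0102).

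**Figure D5:**
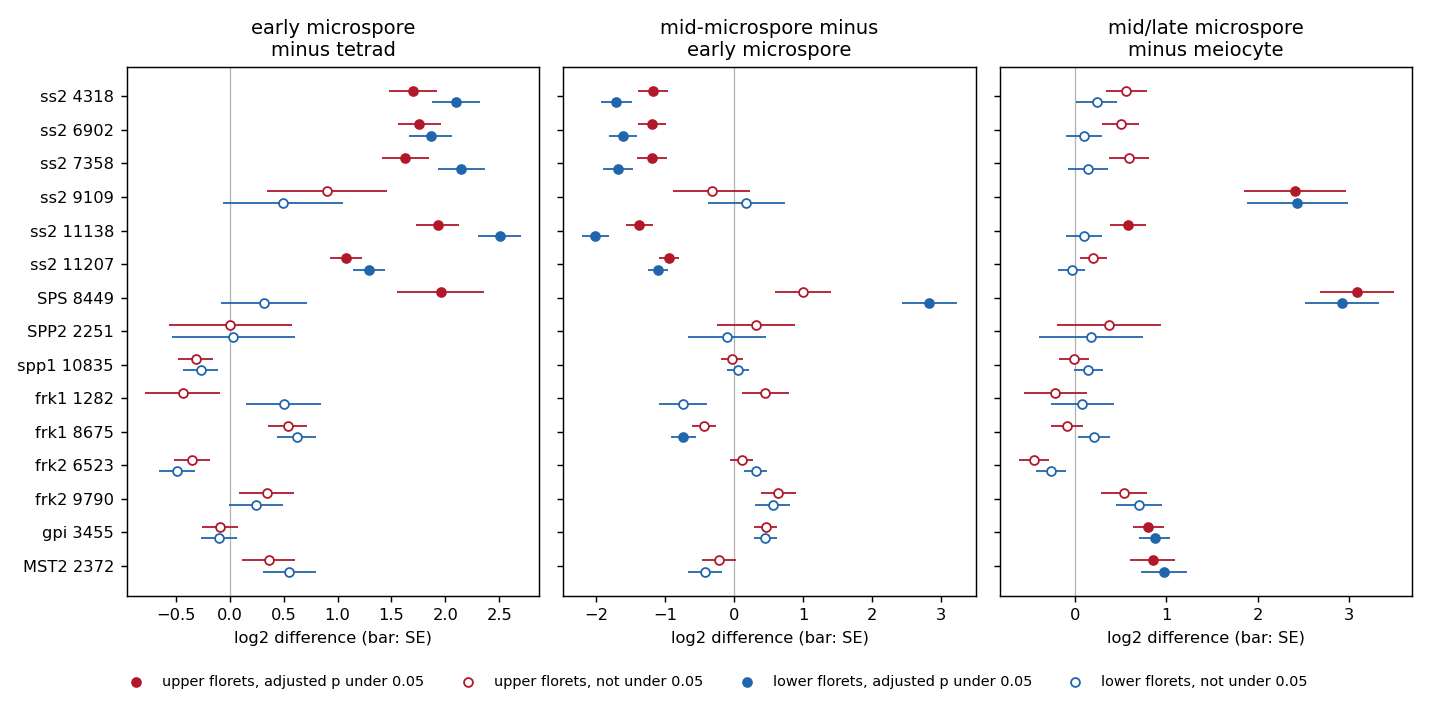
Log2 differences (x axis) with their SE for the ss2 and SPS features and the other features of the sucrose synthesis, hexose phosphate and sugar transport lists (y axis; gene and feature number), for 3 differences between stages in 3 panels, with upper florets above lower florets and filled points for an adjusted p under 0.05. Of the features that are neither ss2 nor SPS, 1 (frk1 8675, lower florets) is called in the left and middle panels together, and gpi and MST2 are called in the right panel.

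Starch and wall glucan genes draw on the same hexose and UDP-glucose pools. Of the 5 features of the starch synthesis list, 0 rose and 3 fell between meiocyte and mid/late microspore in upper florets, and 1 rose and 2 fell in lower florets, with a median of -0.71 in upper and -0.28 in lower florets against -0.01 and 0.01 over all features. Of all features, 13.2% were called higher and 13.5% lower over this span in upper florets, and 14.3% higher and 13.5% lower in lower florets. AGP2 (feature 2242) fell by 3.14 ± 0.65 in upper (adjusted p = 0.00314, limma) and by 2.99 ± 0.65 in lower florets (adjusted p = 0.0042). Agp2 (feature 7872), listed under its own name, rose by 0.66 in lower florets (adjusted p = 0.0264) and was 0.33 higher in upper florets, not called. AGP2 and Agp2 entered the list by the same symbol read without regard to case, and whether both are starch genes was not checked. GBSSIIa, a granule-bound starch synthase gene, fell by 0.84 in upper florets (adjusted p = 0.0108) and was at -0.28 in lower florets, not called. The starch branching enzyme gene ae1 fell by 0.71 in upper (adjusted p = 0.00971) and by 0.56 in lower florets (adjusted p = 0.0311). Of the 9 features of cellulose synthase genes in the wall glucan list, 2 rose in upper and 6 in lower florets and none fell, beside the 13.2% and 14.3% of all features called higher. CesA-8 rose by 0.77 in upper (adjusted p = 0.00191) and by 0.91 in lower florets (adjusted p = 5.57e-04). None of the starch or wall features was called between tetrad and early microspore. Of all features, only 1.94% were called higher at that step in upper and 2.04% in lower florets. The wall feature of CesA-2 rose from early microspore to mid-microspore by 0.75 in upper (adjusted p = 0.0453, limma) and by 0.84 in lower florets (adjusted p = 0.0238). It was 1 of 9 wall features, beside 2.11% of all features called higher there in upper and 3.13% in lower florets.

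Markers of other cell types and of stress were followed over the spans in which ss2 and SPS changed. Between meiocyte and mid/late microspore 9 of 16 photosynthesis features rose and 1 fell in upper florets, and 10 rose and 1 fell in lower florets, beside 13.2% and 14.3% of all features called higher. Of 20 heat shock features 14 fell in upper and 4 in lower florets. Beside them, 13.5% of all features were called lower in each floret, so that the lower floret count is near that share. Many of the 20 are repeat features of 1 gene, as with hsp70-4, so the counts are of features and not of separate genes. The 1 tapetum feature found, ms23, was 0.60 higher in upper florets, which was not called (adjusted p = 0.0877), and rose by 0.74 in lower florets (adjusted p = 0.0392), and 1 of 4 pollen features rose in upper and 0 in lower florets. At the step from tetrad to early microspore, where the 5 ss2 features rose, 1 photosynthesis feature was called, in lower florets. None of the tapetum, meiosis, pollen or heat shock features was called there in either floret. Of all features, only 1.94% were called higher at that step in upper and 2.04% in lower florets. At the step from early microspore to mid-microspore, where the 5 ss2 features fell, 4 of 20 heat shock features fell in each floret, beside the 3.28% and 4.49% of all features called lower. They were HSP18 feature 2768 (-3.11 in upper and -2.88 in lower florets), HSP18 feature 10638 (-4.11 and -3.19), hsp18c (-2.48 and -1.55) and hsp101 (-1.27 and -1.15). Of the 4 meiosis features afd1 was called higher at this step, by 0.95 in upper (adjusted p = 0.0201, limma) and 1.31 in lower florets (adjusted p = 0.00226). The share of all features called higher there was 2.11% in upper and 3.13% in lower florets. No tapetum, pollen or photosynthesis feature was called. The part of changing cell types or of stress in the values of ss2 and SPS was not tested. Since the values are ratios between anther pools, presence or absence of a marker in the tissue cannot be read from them.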

How the data were processed

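Per the labels, RNA from 24 anther pools was amplified and dye-labelled, and 48 cDNA slides carried a Cy3 and a Cy5 pool each, with 3 scans per slide and so 144 columns. The deposited values are ratios on a natural log scale with column medians between -0.0253 and 0.0327 and 0 missing values. The base was read from the values and no label used here names the authors' normalisation software. Genes were named from the platform annotation updated through RefSeq (Zm-B73-REFERENCE-NAM-5.0). Of 12160 features 6412 had 1 gene, 214 several and 5534 none, and 1139 carried a gene name.

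Values were converted to log2, scans were set to a median of 0, and a slide's value is the mean of its 3 scans. Pool levels were fitted by least squares within each set of 12 pools (R 4.3.3, MASS 7.3.60.0.1) and tested with limma 3.58.1 on 12 groups plus a set term (11 residual degrees of freedom). Both pools of a slide have the same number in the labels, so the numbers mark sets hybridised together. Since levels are relative to the set mean, the set term changes degrees of freedom and no difference. P-values were adjusted over all features, jointly over the 5 steps or the 15 pairs of a floret and over the 6 floret comparisons. Floret slides were used as upper over lower whatever the dyes: 10 closed squares of slides gave r of 0.27 to 0.48 across features this way and -0.05 to 0.05 when turned by the dyes. This reading was chosen after seeing the values. The scripts were tested on simulated data.

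All features of both genes were named, with the 5 named features of likest profile for each gene, the likest for each ss2 feature, and the called features of the sugar lists. The members, lists and direction were chosen with earlier results of these data known. Gene lists were matched by symbol, with family prefixes widened after the files were seen. Alternatives covered scans, centring, scaling, the block, the floret reading, the log base, separate fits, leaving out each pool and each set alone.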

Additional observations from a re-analysis of the deposited data

How the results depend on the processing

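For the features of ss2 and SPS, 84 results were recomputed in 1967 tested settings. 1796 kept direction and side of the threshold, 99 lost the call, 13 gained one and 59 changed sign. Calls among the features of ss2 and SPS moved as follows. Counts over all features also moved with the settings, as given below, so these shifts are not read as particular to the 2 genes. From the high scan alone the stage effect was called for 4 rather than 7 features in upper florets, neighbouring steps for 2 rather than 11 in upper and 6 rather than 11 in lower florets, and stage pairs for 25 rather than 44 in upper florets. Medium and high scans averaged gave 7 steps in upper florets. With columns scaled to one spread, mid/late microspore minus meiocyte was called for 1 rather than 3 features in upper and 1 rather than 2 in lower florets. With the floret slides turned by the dyes, or with stage slides alone, it was called for 5 in upper florets. The median of the scans called 1 rather than 0 floret differences at single stages. The mean floret difference was called for 0 rather than 1 features with the floret slides turned by the dyes or the low and medium scans averaged. A count of 1 need not be SPS. Its call held in 9 of the 13 other settings with all pools, and ss2 features 9109 and 11207 were each called in 1. Leaving out 1 pool gave 1 to 4 calls for mid/late microspore minus meiocyte in upper florets (1 without mid/late microspore pool 1 or meiocyte pool 2), 1 to 2 in lower florets, 7 to 11 steps in upper florets (7 without mid-microspore pool 2) and 0 to 1 for the mean floret difference. Without the replicate block, 11 steps were called in each floret, 46 stage pairs in upper florets, and 4 features for mid/late microspore minus meiocyte in upper florets, and SPS at early microspore differed between florets with an adjusted p of 0.0583. The block changed no other count of these calls. Settings with the low and medium scans averaged, the medium and high scans averaged, and slide 2 without its low scan were chosen after seeing the data.

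Of the results called as reported, 3 changed sign, and in each the value with the other sign was not called: from the high scan alone ss2 feature 11207 was at -0.024 into and 0.023 out of early microspore in upper florets, and with the floret slides turned by the dyes the mean floret difference of SPS was -0.10. The other sign changes were in results not called either way. From the high scan alone, mid/late microspore minus meiocyte in lower florets was -0.031 for ss2 feature 6902 and 0.015 for 11207, the floret difference of 11207 at early microspore was 0.0104, the mean floret difference was 0.039 for 4318, 0.026 for 7358, -0.0089 for 11138 and 0.044 for 11207, and the difference between florets in mid/late microspore minus meiocyte was 0.19 for 9109 and -0.0029 for 11207. With the median of the scans the mean floret difference of 7358 was 0.0046, and the difference between florets in mid/late microspore minus meiocyte was 0.14 for 9109 and -0.012 for SPS. With columns scaled, the mean floret difference of 11138 was -0.0047. With the floret slides turned by the dyes, mid/late microspore minus meiocyte in lower florets was 0.077 for 11207, mid-microspore minus early microspore in lower florets was -0.0091 for 9109, and the mean floret difference was 0.033 for 6902 and -0.023 for 11138. With medium and high scans averaged, the mean floret difference was 0.016 for 4318 and -0.0035 for 11138, and the difference between florets in mid/late microspore minus meiocyte was 0.047 for 9109. Leaving out 1 pool, the mean floret difference of ss2 lay between -0.055 and 0.047 for 11138, -0.13 and 0.017 for 4318, -0.085 and 0.037 for 7358 and -0.29 and 0.0305 for 9109. Mid/late microspore minus meiocyte in lower florets lay between -0.21 and 0.095 for 11207, -0.075 and 0.27 for 6902, -0.12 and 0.45 for 7358 and -0.084 and 0.20 for 11138. Its difference between florets lay between -0.83 and 0.67 for 9109 and -0.24 and 0.61 for SPS. For 9109, mid-microspore minus early microspore lay between -0.51 and 0.0902 in upper and -0.13 and 0.62 in lower florets, early microspore minus tetrad in lower florets between -0.0099 and 1.15, and the floret difference at early microspore between -0.029 and 0.78.

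Counts over all features moved too. The stage effect was called for 4562 features in upper and 4566 in lower florets. Under the other settings that kept all pools it was called for 2579 to 5809 and for 2649 to 5781. The rise and fall around early microspore were called for 465 and 655 features in upper and 492 and 927 in lower florets (both directions), for 80 to 465, 147 to 664, 119 to 497 and 285 to 947 on leaving out 1 pool, and for 213 to 1084, 308 to 1354, 115 to 1084 and 328 to 1568 under the other settings. Mid/late microspore minus meiocyte was called for 3246 features in upper and 3379 in lower florets, and for 1376 and 1507 with columns scaled. The mean floret difference was called for 3252 features, and for 1 with the floret slides turned by the dyes. The cause was not tested. Signal over background is not used here, so depth per spot is unknown.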
